A study of Mus musculus with 173 samples.

Results

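The 8 genes described here belong to the machinery by which cells show peptides to T cells and to the response to interferon: B2m, H2-D1, H2-K1, Tap1, Tapbp, Ifitm2, Ifitm3 and Bst2. They are 8 of the 23307 rows of a table of single-cell RNA-seq libraries, and they were chosen by name with their levels in these libraries known, so the levels below are a description. The cells came from the dentate gyrus, the hippocampal region that keeps making neurons in adult life, of C57BL/6 mice aged 8 to 12 weeks; the labels name no treatment, mutation or animal. Library titles begin with N, C or R, and the labels do not explain these letters. Of the 172 libraries used, 11 are N libraries that clustered apart and carry vascular markers (vascular-like N), 4 are R, 15 are other N and the rest are C. The C libraries are those rich in transcripts of the fluorescent protein eCFP, with medians of 12.0 TPM in R, 8739 TPM in C and 44.6 TPM in N.

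Class I molecules of the major histocompatibility complex pair a variable heavy chain with an invariant light chain and carry peptides from inside the cell to its surface. The peptides are pumped into the endoplasmic reticulum by the TAP transporter and loaded with the help of tapasin. Interferons raise many of these genes, along with membrane proteins that hinder viral entry or release; in the brain, endothelial cells are known for class I on their surface, and most neural cells for little of it.

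Values are TPM, a measure corrected for transcript length whose sum is equal in all libraries, so levels can be set side by side between genes but the depth of each library is unknown. Differences are between means of log2(TPM + 1), and a gene is counted as higher or lower when this difference is at least 1 in size. Since no label ties a library to an animal, each class counts as 1 sample: every SD is between libraries, and no test was possible. Libraries held 1600 to 4562 genes at a TPM of at least 1 in vascular-like N (median 3090), 2476 to 3838 in R, 1717 to 7192 in C (median 3701) and 2126 to 4885 in other N (median 3825). Some 78.5% of all values are 0, and an exact 0 can be a failed estimate, since Gapdh, which every cell uses, is listed at 0 in 2 C libraries. A level of 0 therefore means that the gene is listed at 0. In the filter on low values, which asks for a TPM of at least 1 in at least 5% of libraries, 12007 genes passed; Tap1 and Bst2 did not, and the other 6 of the 8 genes did.

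The promoters of the genes whose levels are followed in most detail are shown with the short motifs that interferon and inflammatory signals are known to act through. Each runs 5′ to 3′ on the gene's own strand, from 250 bases before the start to 30 bases after it, and comes from RefSeq on the build GRCm38.p6, a later build than the one behind the TPM values. Capitals mark the interferon regulatory factor half-site AANNGAAA and the paired interferon-response element, which is GAAA, 2 bases of any kind and GAAA again. They also mark the kappa B motif of class I promoters, which begins with GGGG. All were read on both strands, and the half-site can lie inside the paired element. The windows are B2m at chr2:122147437-122147716 (plus strand), Ifitm2 at chr7:140955932-140956211 (minus), Ifitm3 at chr7:141010715-141010994 (minus), H2-D1 at chr17:35262844-35263123 (plus) and H2-K1 at chr17:34000318-34000597 (minus).
B2m: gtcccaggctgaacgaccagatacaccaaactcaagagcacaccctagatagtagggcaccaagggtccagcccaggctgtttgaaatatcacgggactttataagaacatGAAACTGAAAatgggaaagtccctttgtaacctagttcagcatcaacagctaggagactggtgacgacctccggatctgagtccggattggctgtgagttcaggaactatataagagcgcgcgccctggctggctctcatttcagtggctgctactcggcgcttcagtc
Ifitm2: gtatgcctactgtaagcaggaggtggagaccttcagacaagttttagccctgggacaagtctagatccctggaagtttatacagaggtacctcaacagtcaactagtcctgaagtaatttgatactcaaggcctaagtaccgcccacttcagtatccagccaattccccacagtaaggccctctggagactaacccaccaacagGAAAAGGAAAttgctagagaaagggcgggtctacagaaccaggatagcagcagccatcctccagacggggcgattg
Ifitm3: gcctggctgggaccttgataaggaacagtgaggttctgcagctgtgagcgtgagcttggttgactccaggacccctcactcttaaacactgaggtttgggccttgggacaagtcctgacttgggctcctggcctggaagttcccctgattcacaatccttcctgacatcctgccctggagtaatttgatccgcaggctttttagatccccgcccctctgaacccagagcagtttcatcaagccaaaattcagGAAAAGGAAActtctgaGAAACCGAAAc
H2-D1: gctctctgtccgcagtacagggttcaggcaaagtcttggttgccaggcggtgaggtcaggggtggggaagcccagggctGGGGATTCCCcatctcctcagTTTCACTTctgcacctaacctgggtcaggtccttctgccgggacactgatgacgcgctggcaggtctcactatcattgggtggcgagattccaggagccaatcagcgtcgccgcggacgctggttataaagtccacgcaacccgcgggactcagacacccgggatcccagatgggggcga
H2-K1: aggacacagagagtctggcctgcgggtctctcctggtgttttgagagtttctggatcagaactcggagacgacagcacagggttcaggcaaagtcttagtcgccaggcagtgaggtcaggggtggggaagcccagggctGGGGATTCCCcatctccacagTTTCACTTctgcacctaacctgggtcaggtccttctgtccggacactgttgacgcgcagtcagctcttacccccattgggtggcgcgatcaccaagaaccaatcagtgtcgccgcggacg
All 8 genes had a promoter of 300 bases in the RefSeq table (250 before and 50 after the start). The paired element was in 4 of them, namely B2m, Ifitm2, Ifitm3 and Bst2, and in 3.44% of all 32851 windows. It lay upstream of the start in B2m and, beginning 46 bases before it, in Ifitm2, whereas in Ifitm3 it occurred after the start, at bases 3 and 20. The half-site was in 6 of the 8, all but Tap1 and Tapbp, and in 23.9% of all windows. The kappa B motif was in H2-D1, beginning 171 bases before the start, and in H2-K1, and in 0.107% of all windows. Those 2 heavy-chain promoters share an unbroken run of 47 bases that contains it. The motif TTCNNNGAA, which STAT dimers can bind, was in Ifitm3 and Bst2 and in 8.30% of windows. These are matches of letters and not measured binding sites.

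The vascular-like N libraries were found by clustering the 172 libraries on variable genes, from which the 8 genes, all listed marker genes and eCFP had been left out. The cluster, number 6 of 8, held the 11 N libraries and the C libraries C129 and C142, and its leading genes included Myh11, Acta2, Emcn and Fli1. The name of the cluster rests on marker lists. In C142 the endothelial and mural list means were 1.02 and 1.23 on the log2 scale. They lay under those of its neural stem cell (3.39), oligodendrocyte (3.32) and microglial (2.70) lists. All 12 listed endothelial markers reached a TPM of 1 in some vascular-like N library, as did 7 in other N and all 12 in C. The tight-junction gene Cldn5 did so in 6 of 11 vascular-like N and 2 of 15 other N libraries. For the transporter Slco1a4 it was 9 of 11 and 0 of 15, for Pecam1 3 and 0, for Kdr 2 and 1 and for Tie1 2 and 0. Ramp2 went the other way by share, in 3 of 11 and 6 of 15. The mean over the endothelial list ran from 0.39 to 8.02 (median 4.99) in vascular-like N and from 0.069 to 1.13 (median 0.36) in other N, on the log2 scale. In 8 of the 11 libraries the endothelial list exceeded the list of mural cells, the smooth muscle cells and pericytes of the vessel wall. In N14, N16 and N22 the mural list was higher, at 7.65, 6.72 and 6.12. Of 14 microglial markers, 7 were at 0 in all vascular-like N libraries, including Tmem119, C1qa and Aif1, while Cx3cr1 reached a TPM of 1 in 9 of 11, Csf1r in 4 and P2ry12 in 3. The microglial list mean had a median of 0.41 and a maximum of 0.93 in vascular-like N, against 0.29 and 1.05 in other N. In vascular-like N, 5 of 6 markers of perivascular macrophages and 6 of 8 of lymphocytes were at 0. The mean over the erythroid (red blood cell) list had a median of 0 in both groups, with maxima of 9.87 in vascular-like N and 3.87 in other N. The 9.87 was in a library whose endothelial list exceeded its mural list, and it lies above every endothelial list mean. Its bearing on the levels of the 8 genes was not tested. Of the other N libraries, 6 fell in the oligodendrocyte lineage-like cluster 7, 3 each in clusters 1 and 2 and 3 in cluster 5, which was left unnamed. Clusters 1 and 2 are mostly C libraries and have the neural stem cell list as their highest, but none of their 6 N libraries does: the highest list was that of oligodendrocyte precursors in N1 and N10, neuroblasts in N8 and N9, astrocytes in N11 and oligodendrocytes in N23.

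Within N, the vascular-like libraries had far more transcripts of the light chain B2m and of the membrane proteins Ifitm2 and Ifitm3 than the other libraries. Of the 6 genes passing the filter, 5 were higher by at least 1 (B2m, H2-K1, Tapbp, Ifitm2 and Ifitm3) and 0 were lower, where 5.87% of all genes passing were higher and 27.7% lower. Their median difference was 3.22, and that of all genes passing was -0.43. By the stricter threshold of 2, 3 were higher (B2m, Ifitm2 and Ifitm3) where 1.94% of all genes were, and 0 lower where 8.85% were. Single libraries decided the rest: leaving out 1 library at a time gave 3 genes higher without N6, 4 without N3, N14 or N21, and up to 6 in others.

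**Figure D1:**
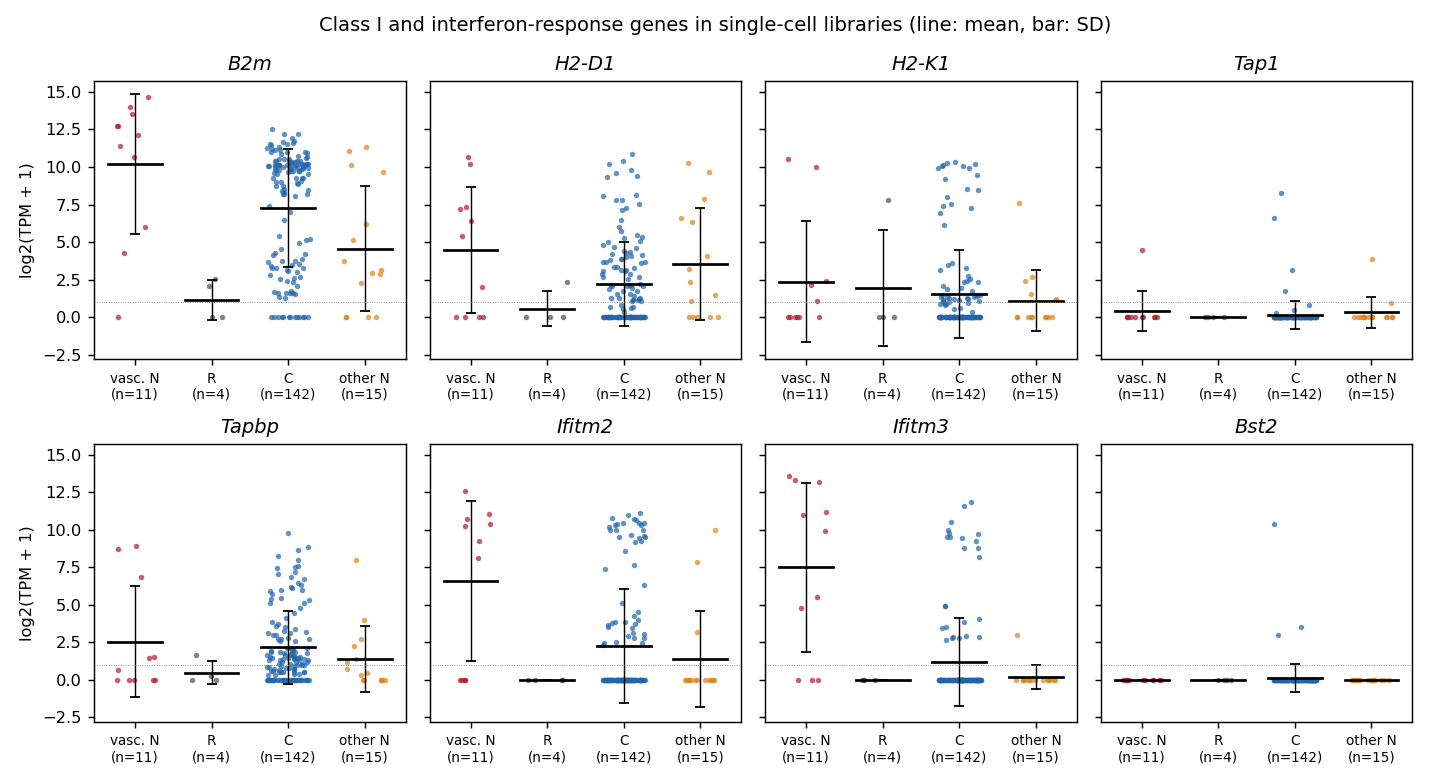
Each panel shows 1 gene, with log2(TPM + 1) on the vertical axis and 1 point per library in the groups vascular-like N, R, C and other N; the line is the mean, the bar the SD between libraries and the dotted line a TPM of 1. Ifitm3 reached 100 TPM in 6 of 11 vascular-like N libraries and in 0 of 15 other N libraries, and the 4 R libraries lay at 4.77 TPM of B2m or below.

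B2m, the light chain shared by all class I molecules, had the highest mean TPM of the 8 genes in vascular-like N, other N and C. In the 8 vascular-like libraries whose endothelial list exceeded the mural list it was at 25429 TPM in N5, 16451 in N26, 11944 in N12, 6763 in N3, 6667 in N7 and 4438 in N6, but at 64.2 in N21 and 18.7 in N4. In the libraries with the higher mural list it was at 2688 TPM in N16, 1654 in N14 and 0 in N22. The other N libraries had 2625 TPM in N2, 2134 in N1, 1116 in N11 and 795 in N15, at most 71.9 in the remaining 11, and a median of 8.00. The groups overlapped, but 7 vascular-like libraries lay above every other N library. The mean was 10.19 ± 4.69 in vascular-like N (SD, n = 11) and 4.57 ± 4.18 in other N (SD, n = 15), a difference of 5.63, and it stayed between 5.18 and 6.65 when 1 library at a time was left out. At 100 TPM or more it was 8 of 11 against 4 of 15 libraries. N4 and N21 also had the lowest endothelial list means among the 8, at 2.28 with 4 of 12 markers and 2.61 with 3 of 12, and in N4 the stem cell list was higher, at 2.57. N21 had the fewest genes of all libraries (1600). Across the 11 libraries B2m had a Pearson r of 0.66 with the endothelial list mean and of 0.72 with the number of genes detected, values that share the same libraries and whose parts in the level of B2m were not tested.

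The classical heavy chains H2-D1 and H2-K1, which hold the peptide groove, did not follow B2m library by library. H2-D1 was at 1641 TPM in N26, 1170.1 in N14, 157 in N3, 145 in N4, 83.3 in N21, 42.1 in N6, 3.06 in N12 and 0 in the other 4 vascular-like libraries. In other N it was at 1250.0 TPM in N9, 816 in N23, 235 in N19, 95.6 in N11, 78.6 in N15 and at most 15.9 elsewhere, with a median of 4.03. The groups overlapped, and N9 and N19 had H2-D1 with B2m listed at 0. The means were 4.47 ± 4.21 in vascular-like N (SD, n = 11) and 3.53 ± 3.72 in other N (SD, n = 15), a difference of 0.95, under the threshold. It was 0.32 without N26, 0.37 without N14, 1.43 without N9, 0.05 with vascular-like libraries chosen by marker list means alone, and -1.02 in the 6 vascular-like and 12 other libraries with at least 3000 genes, so its sign depended on the libraries used. Between medians of log2 values the difference was 3.10, from medians of 42.1 TPM in vascular-like N and 4.03 in other N.

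H2-K1 was at 1506 TPM in N21 and 1006 in N6, at 4.2 in N16, 3.37 in N5 and 1.10 in N26, and at 0 in the other 6 vascular-like libraries. Other N libraries had 190.4 TPM in N11 and at most 5.47 in the rest, with 0 in 9 of 15. High levels were thus seen in 2 vascular-like libraries. The difference of 1.27 between means of 2.37 ± 4.0 in vascular-like N (SD, n = 11) and 1.11 ± 2.02 in other N (SD, n = 15) was 0.45 without N21, 0.51 without N6 and 0.13 with vascular-like libraries chosen by marker list means alone (9 against 17 libraries). Both heavy chains share sequence with other genes of the complex, which makes their split among loci uncertain: of all 50-base words of their GENCODE vM21 transcripts, 12.8% of those of H2-D1 and 9.63% of those of H2-K1 also occur in transcripts of other genes, and 0% of those of B2m.

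Of the peptide-loading genes, Tapbp was high in few N libraries and Tap1 was at 0 in most. Tapbp, which encodes tapasin and bridges TAP to empty class I molecules, was at 484 TPM in N14, 413 in N3 and 113.7 in N6, and at most 1.82 in the other 8 vascular-like libraries. In other N it was at 252 TPM in N13, 14.8 in N8 and at most 5.51 in the rest. The means were 2.55 ± 3.68 in vascular-like N (SD, n = 11) and 1.40 ± 2.18 in other N (SD, n = 15), a difference of 1.15 that was 0.51 without N14, 0.53 without N3 and 0.72 without N6. Tap1, a subunit of the TAP transporter, was at 20.9 TPM in N3 and 0 in the other 10 vascular-like libraries, and at 13.4 in N9, 0.96 in N1 and 0 in the other 13. The 2 highest of these, N3 and N9, thus lay in both groups.

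Ifitm2 and Ifitm3, interferon-induced membrane proteins that restrict the entry of enveloped viruses, were both higher in vascular-like N. Ifitm3 was at 12178 TPM in N4, 10158 in N3, 9251 in N21, 2333 in N12, 2048 in N5, 967 in N14, 43.9 in N26, 26.5 in N7 and 0 in N6, N16 and N22. In other N it was at 6.94 TPM in N24 and 0 in the other 14. Every vascular-like library in which it was detected therefore lay above every other N library. The means were 7.49 ± 5.61 in vascular-like N (SD, n = 11) and 0.20 ± 0.77 in other N (SD, n = 15), and the difference of 7.29 stayed between 6.69 and 8.04 when 1 library at a time was left out. With vascular-like libraries chosen by their marker list means alone, which leaves N4 and N21 among the others (9 against 17 libraries), it was 4.44.

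Ifitm2 was at 6028 TPM in N4, 2100.3 in N6, 1654 in N16, 1329 in N26, 1219.8 in N14, 596 in N7, 281 in N22 and 0 in N3, N5, N12 and N21. In other N it was at 1025 TPM in N13, 232 in N11, 8.12 in N10 and 0 in the other 12. The means were 6.57 ± 5.32 in vascular-like N (SD, n = 11) and 1.40 ± 3.19 in other N (SD, n = 15), a difference of 5.17 that ranged from 4.57 to 5.82 with 1 library left out. N14, N16 and N22, with the higher mural list, all had Ifitm2, and 1 of them had Ifitm3. At 100 TPM or more, 2 vascular-like libraries had both (N4 and N14), 5 had Ifitm2 alone, 4 had Ifitm3 alone and 0 had neither, against 0, 2, 0 and 13 of the other N libraries. At a TPM of 1, 4 vascular-like libraries had both. Across the 11 libraries Pearson's r between them was -0.56 and Spearman's rho -0.34, and across the C libraries they were 0.16 and 0.039. Of the 50-base words of Ifitm2, 48.5% also occur in transcripts of other genes, and 10.02% of those of Ifitm3, so the level of Ifitm2 in particular is uncertain.

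**Figure D2:**
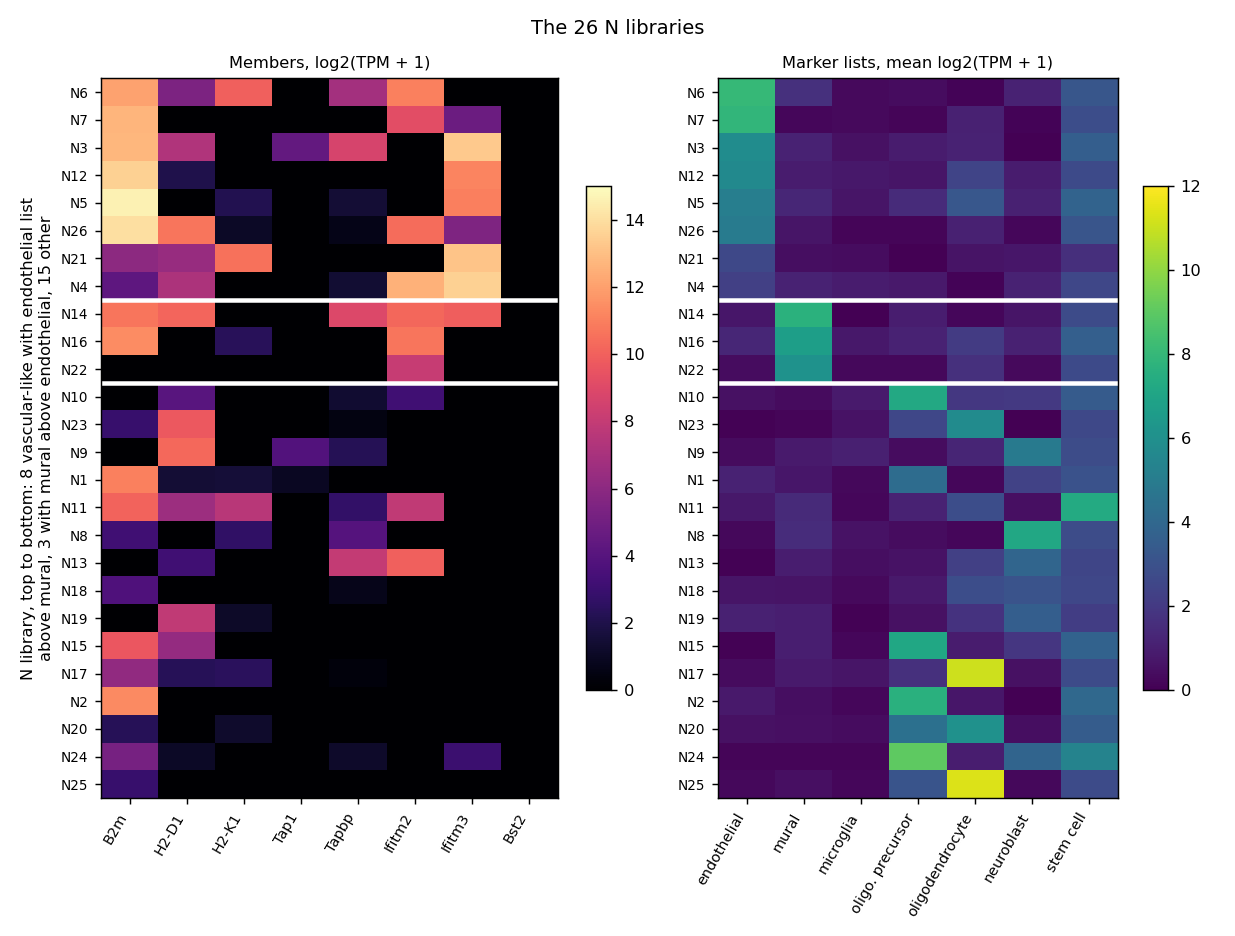
The 26 N libraries as rows, with the 8 vascular-like libraries with the higher endothelial list on top, the 3 with the higher mural list next and the 15 others at the bottom; colour gives log2(TPM + 1) of each of the 8 genes (left) and the mean log2 value over marker lists (right). Libraries with high endothelial or mural lists have B2m, Ifitm2 or Ifitm3 in varying combinations, and the column of Bst2 is at 0 in all of them.

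Bst2, or tetherin, which holds budding virions at the cell surface, was at 0 in all 26 N libraries. In vascular-like N that is 0 of 11, with an exact 95% interval for the share of libraries from 0 to 28.5%, and in other N 0 of 15, with one from 0 to 21.8%. These intervals cover counting error only.

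**Figure D3:**
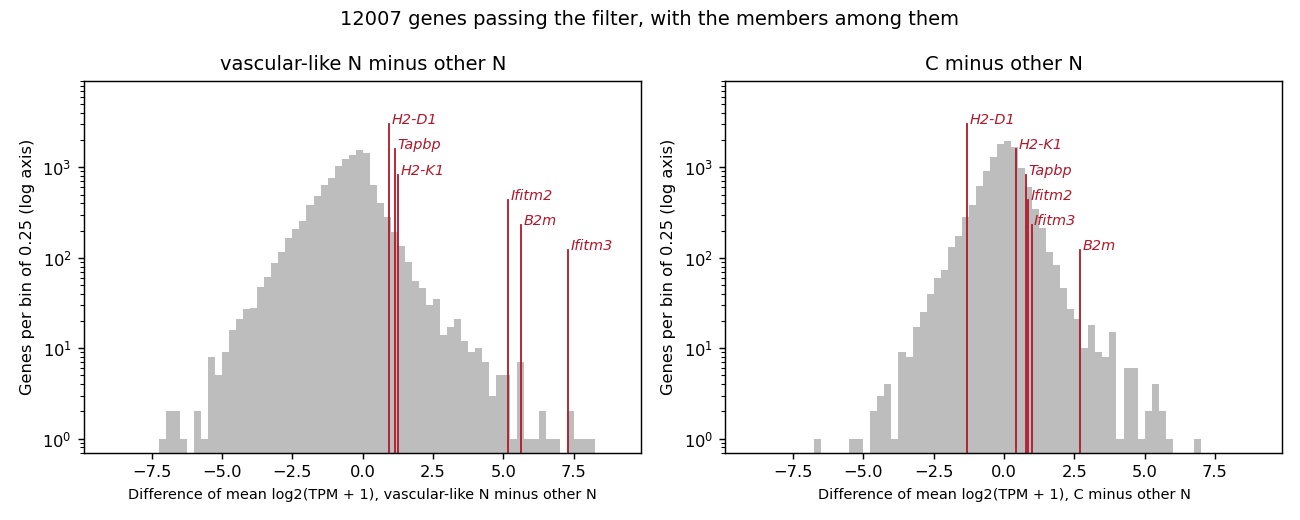
Histograms of the difference in mean log2(TPM + 1) over the 12007 genes passing the filter, for vascular-like N minus other N (left) and C minus other N (right), with the number of genes per bin on a log axis; vertical lines mark the 6 genes of the set that passed. On the left Ifitm3, B2m and Ifitm2 lie at 7.29, 5.63 and 5.17, and on the right B2m lies at 2.72.

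C libraries had B2m in most cells and the other genes in a part of them. B2m ran from 0 to 5973 TPM with a median of 621, and 90.8% of libraries reached a TPM of 1 (exact 95% interval 84.9 to 95.03). In all, 91 libraries were at 100 TPM or more, 36 under 10 and 15 in between. The mean was 7.29 ± 3.94 in C (SD, all C libraries) and 4.57 ± 4.18 in other N (SD, n = 15), a difference of 2.72, with 64.1% of libraries at 100 TPM or more in C against 4 of 15 in other N. Against all 26 N libraries together (6.95 ± 5.16) the difference was 0.34, and it was -0.54 when libraries were rescaled by the median of ratios and -1.86 between log2 values of mean TPM, so its sign depended on the scaling. The difference from other N was 0.95 between log2 values of mean TPM. Between medians of log2 values, B2m was higher in C by 3.17 against all of N and by 6.11 against other N.

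**Figure D4:**
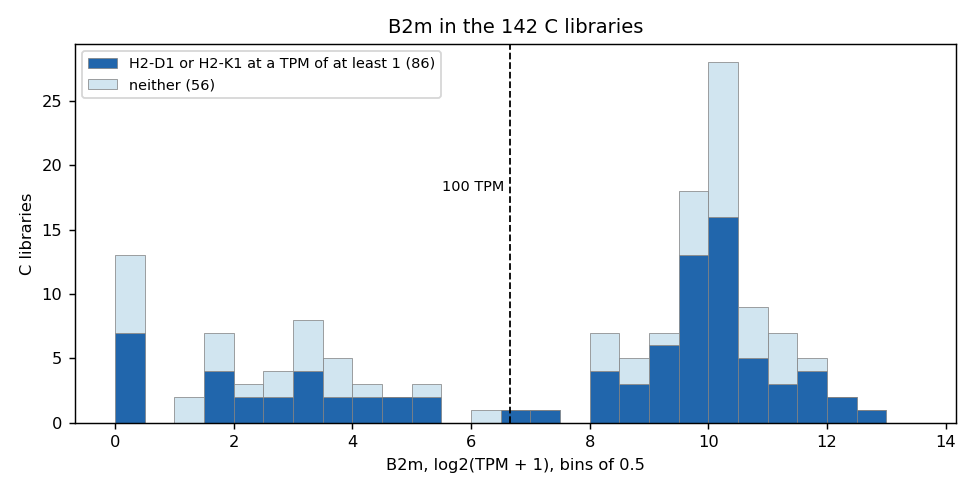
Number of C libraries by B2m level, log2(TPM + 1) in bins of 0.5, coloured by whether H2-D1 or H2-K1 reached a TPM of 1 (86 libraries) or neither did (56); the dashed line is at 100 TPM. Of the C libraries, 15 lie between 10 and 100 TPM, and both colours occur at either side.

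The heavy chains were found in fewer C libraries than the light chain. H2-D1 reached a TPM of 1 in 74 libraries (52.1%, 43.6 to 60.6), with a median of 1.18 and a maximum of 1854 TPM, and H2-K1 in 46 (32.4%, 24.8 to 40.8), with a median of 0 and a maximum of 1270.1 TPM. Neither was at 1 TPM in 56 libraries. Of the 91 libraries with B2m at 100 TPM or more, 59 had one of these heavy chains and 32 had neither; of the 51 below, 27 had one and 24 had neither. With any of 13 listed class I heavy-chain rows counted, it was 91 of 91 and 50 of 51. Among those rows is H2-T23, a non-classical heavy chain, which reached a TPM of 1 in all but 2 C libraries, with a mean of 6.15 ± 1.70 in C and 6.58 ± 1.49 in other N. H2-D1 averaged 2.21 ± 2.82 in C and 3.53 ± 3.72 in other N, a difference of -1.32 that was -0.83 without N9 and -0.88 without N23. H2-K1 averaged 1.55 ± 2.96 in C and 1.11 ± 2.02 in other N, a difference of 0.44. Within C, the 2 heavy chains had a Pearson r of 0.37 with each other and a Spearman rho of 0.33, while B2m had an r of 0.047 with H2-D1 and 0.11 with H2-K1.

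Of the 6 genes passing the filter, 1 was higher in C than in other N by at least 1 (B2m) where 7.83% of all genes were, and 1 was lower (H2-D1) where 10.1% were. The count of higher genes was 2 without N11 or N24 and 3 without N13, and that of lower genes was 0 without N9 or N23. Their median difference was 0.82, and that of all genes 0.019. At the threshold of 2, 1 was higher (B2m) where 1.48% of all genes were, and 0 lower where 2.05% were. Against all of N, 0 were higher, where 9.98% of all genes were, and 3 were lower (Ifitm3 by -2.10, H2-D1 by -1.72 and Ifitm2 by -1.33), where 4.19% were; without N4 the difference of Ifitm2 was -0.97. At the threshold of 2, 0 were higher where 2.13% were, and 1 was lower (Ifitm3) where 0.633% were. The second comparison includes the vascular-like libraries in N, and the first does not.

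Tapbp reached a TPM of 1 in 83 C libraries (58.5%), with a median of 1.62 and a maximum of 865 TPM, and averaged 2.18 ± 2.43 in C against 1.40 ± 2.18 in other N. Tap1 did so in 4 (2.82%): it was at 312 TPM in C85, 98.3 in C86, 7.88 in C67 and 2.34 in C136. Other genes of peptide supply and loading varied. The chaperone Canx reached a TPM of 1 in every C library and Psme2, a proteasome activator subunit, in 92. Tap2 did so in 8 and Erap1 in 12.

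Ifitm2 reached a TPM of 1 in 46 C libraries (32.4%, 24.8 to 40.8) and Ifitm3 in 25 (17.6%, 11.7 to 24.9), with medians of 0 and maxima of 2188 and 3621 TPM. Ifitm2 averaged 2.26 ± 3.77 in C and 1.40 ± 3.19 in other N, a difference of 0.86. Ifitm3 averaged 1.19 ± 2.92 in C and 0.20 ± 0.77 in other N, a difference of 0.99, just under the threshold; between log2 values of mean TPM it was 6.18, and with vascular-like N chosen by list means alone it was -0.56. At 100 TPM or more, 6 C libraries had both, 19 had Ifitm2 alone, 7 had Ifitm3 alone and 110 had neither. Bst2 was at 1302 TPM in C29, 10.8 in C49 and 7.11 in C1, all in cluster 2, and at 0 in all others.

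Between clusters, the mean of B2m in C libraries was 8.70 ± 3.91 in cluster 8 (n = 7), 8.14 ± 3.67 in cluster 2 (n = 33), 7.89 ± 3.81 in cluster 4 (n = 19), 7.87 ± 3.53 in cluster 5 (n = 7), 6.61 ± 4.22 in cluster 1 (n = 45) and 6.27 ± 3.88 in cluster 3 (n = 26), and neighbours in that order differed by less than 1 SD between libraries, as did the first and the last. Cluster 3 is led by the division genes Cdc20 and Cenpa. Of these 6 clusters it had the highest mean of Ifitm2, 3.42 ± 4.21 with 12 of 26 libraries at a TPM of 1, where the other means ran from 1.83 to 3.32. It also had the lowest mean of Tapbp, 1.35 ± 1.79, where the others ran from 2.12 to 3.23.

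**Figure D5:**
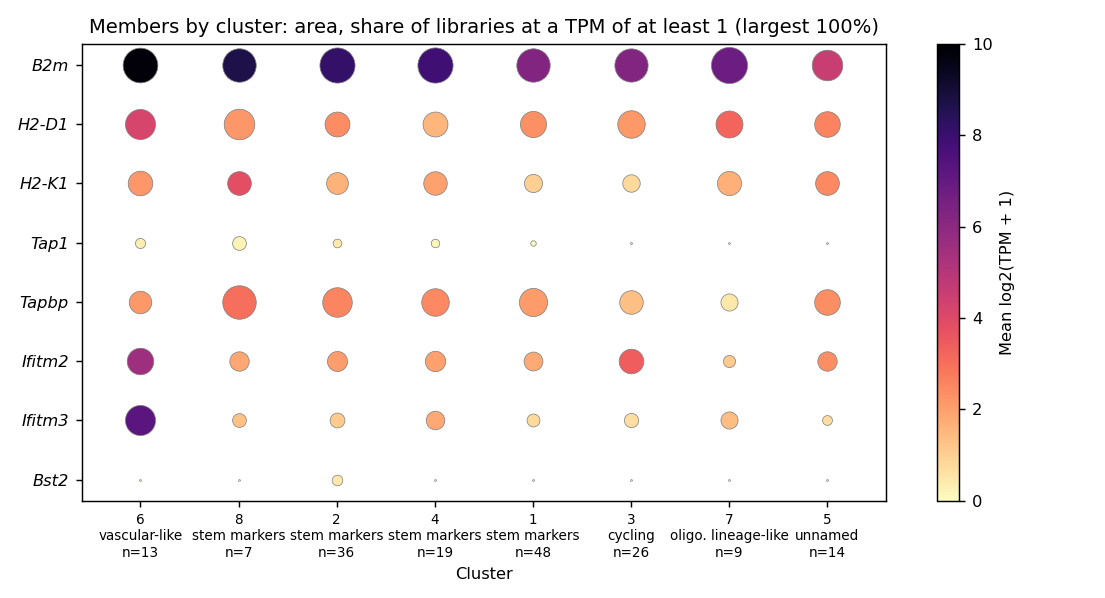
The 8 genes (rows) in the 8 clusters (columns); the area of a point is the share of libraries at a TPM of at least 1 and its colour the mean log2(TPM + 1). B2m is present in most libraries of each cluster, and Ifitm3 has its highest mean in the vascular-like cluster 6.

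Several of the 8 genes were high together in a few libraries. At least 4 were at 100 TPM or more in N3, N6 and N14 and in the C libraries C16, C85 and C139. C85 had 5973 TPM of B2m, the highest in C, with 1055 of H2-K1, 312 of Tap1, 112.5 of Tapbp, 1617 of Ifitm2 and 737 of Ifitm3. In it, 8 of 12 endothelial markers reached a TPM of 1, with a list mean of 4.84, beside a stem cell list mean of 7.88 and 7339 TPM of eCFP. C139 had 4620.0 TPM of B2m, 1168 of H2-D1, 1117 of H2-K1, 1029 of Ifitm2 and 693 of Ifitm3, again with 8 of 12 endothelial markers (list mean 4.74), beside an oligodendrocyte precursor list mean of 7.07. In C16, with 3275 TPM of B2m, 1231 of H2-K1, 714 of Ifitm2 and 859 of Ifitm3, 0 of 12 endothelial markers reached a TPM of 1. The highest Ifitm3 of C, 3621 TPM, was in C129, which has a mural list mean of 7.31 and lies in the vascular-like cluster. The part of more than 1 cell in a library was not tested, and these libraries were singled out after their values were seen.

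The 4 R libraries had almost none of these transcripts. B2m was at 0, 3.28, 4.77 and 0 TPM in R1 to R4, H2-D1 at 3.98 in R3 and 0 in the others, and Tapbp at 2.14 in R1, 0.22 in R3 and 0 in the others. H2-K1 was at 217 TPM in R3 and 0 in the others. Tap1, Ifitm2, Ifitm3 and Bst2 were at 0 in all 4, which for 0 of 4 libraries allows an exact 95% interval from 0 to 60.2%. B2m averaged 1.16 ± 1.35 in R (SD, n = 4) and 7.29 ± 3.94 in C (SD, all C libraries), a difference of -6.13. All 4 R libraries lay below the C median of 621 TPM, within the lower range of C. Of the 6 genes passing the filter, 0 were higher in R than in C by at least 1, where 20.9% of all genes were, and 5 were lower, where 22% were. At the threshold of 2, 0 were higher where 10.2% were, and 2 lower (B2m and Ifitm2) where 6.37% were. H2-K1 was the exception at 0.40, and it was -1.55 without R3, whereas without R1, R2 or R4 it was the 1 gene higher. Other lists differed between the same groups. All 4 R libraries lie in cluster 5, and the mean over the mature neuron list had a median of 5.10 in R and 0.47 in C, and that over the neuroblast list 3.70 in R and 0.79 in C. The microglial list mean had a median of 0.99 in R and 0.25 in C, with 6 of its 14 markers at 0 in all R libraries; P2ry12 averaged 4.50 in R and 0.17 in C, whereas Cx3cr1 averaged 0.87 in R and 2.03 in C. The part of these cell types in the levels of the 8 genes was not tested.

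Other genes of the pathways were read from lists of class I presentation, interferon-stimulated genes, receptors and signalling, interferon ligands and class II genes. Of 23 further class I genes, 18 passed the filter; in vascular-like minus other N, 0 were higher and 3 lower by at least 1, where 5.87% and 27.7% of all genes were, with a median of -0.08. The lower ones were the chaperones Calr (-2.42) and Canx (-1.96), which help class I chains fold, and the tapasin relative Tapbpl (-1.16), followed by the heavy-chain gene H2-T24 (-0.89). In C minus other N, 1 of the 18 was higher (Psme1, a proteasome activator subunit, 1.24) and 1 lower (Calr, -1.35), where 7.83% and 10.1% of all genes were. In R minus C, 4 were higher and 4 lower, where 20.9% and 22% of all genes were. H2-T23 was at 5.90 ± 3.91 in vascular-like N and 6.58 ± 1.49 in other N. Immunoproteasome subunits, which trim proteins into class I peptides, differed from each other. Psmb8 and Psmb9 were detected at 1 TPM in 1 vascular-like N library each and in 13 and 12 C libraries. Both were so in 0 other N and 0 R libraries. Psmb10 reached a TPM of 1 in 4 vascular-like N, 6 other N, 43 C and 4 R libraries. It averaged 7.41 ± 4.08 in R and 1.44 ± 2.82 in C, a difference of 5.97.

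Among 48 further interferon-stimulated genes, 47 were in the table and 29 passed. In vascular-like minus other N, 10 were higher, where 5.87% of all genes were, and 4 lower, where 27.7% were, with a median of 0.22. Ly6e, a membrane protein that restricts some viruses, averaged 8.79 ± 4.34 in vascular-like N and 3.56 ± 3.30 in other N, a difference of 5.23, with a TPM of 1 in 11 of 11 and 14 of 15 libraries. Ifitm1, the third of the Ifitm genes listed, averaged 5.20 ± 3.18 in vascular-like N and 0.49 ± 1.30 in other N, a difference of 4.71. Trim30a (2.16) and Ifi35 (2.14) came next, each with a TPM of 1 in 3 of 11 vascular-like libraries and a median of 0. The remaining higher genes, Ifit1, Gbp2, Gbp6, Gbp7, Lgals3bp and Parp9, reached it in 2 or 3 of 11, also with medians of 0. The lower genes were Eif2ak2 (-1.64), Xaf1 (-1.35), Oas3 (-1.16) and Oas1b (-1.06). These reached a TPM of 1 in 7, 7, 1 and 2 of 11 vascular-like and 13, 14, 8 and 6 of 15 other N libraries. In C minus other N, 1 of the 29 was higher (Ifit3, 1.26) and 1 lower (Ly6e, -1.20), where 7.83% and 10.1% of all genes were. In R minus C, 1 was higher and 6 lower, where 20.9% and 22% of all genes were.

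Interferon receptor genes were detected, and their ligands were listed at 0. Ifnar1, a chain of the type I interferon receptor, averaged 4.89 ± 2.66 in vascular-like N, with a TPM of 1 in 11 of 11, 5.33 ± 1.57 in C, in all but 3 libraries, and 5.60 ± 1.84 in other N, in 15 of 15. Ifnar2, the other chain, reached a TPM of 1 in 3 vascular-like N, 36 C and 0 other N libraries, a difference of 1.55 in vascular-like minus other N and 1.35 in C minus other N. Irf9, which joins the STAT proteins downstream of that receptor, was lower in vascular-like N (0.39 ± 0.94) than in other N (1.76 ± 1.33), by -1.37. Of 14 receptor and signalling genes passing, 1 was higher (Ifnar2) and 1 lower (Irf9) in vascular-like minus other N, where 5.87% and 27.7% of all genes were, and the next in size were Ifngr2 (-0.81) and Ifnar1 (-0.71). In C minus other N, 2 were higher (Ifnar2 and the transcription factor Irf3, at 1.18) and 0 lower, where 7.83% and 10.1% of all genes were. In R minus C, 1 was higher and 5 lower, where 20.9% and 22% of all genes were. All 8 listed interferon ligands were at 0 in every library, and of 7 class II genes 4 were at 0 throughout and 0 passed the filter.

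The genes with the most similar pattern were ranked by Pearson's r of log2 values over the 172 libraries, as a description. For Ifitm3 they were Ifitm1 (0.71), Fxyd5 (0.61) and Ifitm7 (0.51); without the vascular-like cluster (159 libraries) the r with Ifitm1 was 0.57 and that with Fxyd5 was 0.18. For Ifitm2 they were Gm2518 (0.64), Ifitm7 (0.54) and Ifitm1 (0.53). Ifitm genes share sequence with each other and with predicted genes, so r between their rows is uncertain. For H2-D1 they were LOC547349 (0.53), 2410017I17Rik (0.50) and H2-Q7 (0.40), and for H2-K1 they included Alpk1 and Dnajc4 (0.34 each). B2m had no gene above 0.32, that of Sparcl1, and Tapbp none above 0.35, that of Mdc1. For the mean over all 8 genes, Ifitm1 (0.60), Ifitm7 (0.54), Wfdc1 (0.50), Slco1a4 (0.50) and Esam (0.49) came first, the last 2 being endothelial markers.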

How the data were processed

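RNA of single cells from the dentate gyrus was sequenced with the NuGEN Ultralow V2 kit, per the labels' protocols. The authors deposited 1 table of TPM (length-corrected transcript shares), estimated with RSEM against mm9, per the submitters' processing notes; what aligner, annotation and cell filter they used is not given in the sources read. RSEM divides reads that fit several genes by a model, so levels of near-identical genes are uncertain. Each column sums to the same total and keeps no depth, so no count test was possible. Classes came from the title letter. There are 173 labelled samples and 172 columns of values; 1 column could be either of 2 C samples, and served as a C library with no replicate number. No pair of columns was identical.

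Values were analysed as log2(TPM + 1) in Python 3.11.15 with numpy 2.4.6, pandas 2.3.3 and scipy 1.17.1, keeping genes with a TPM of at least 1 in at least 5% of libraries. A pseudocount of 1 understates differences of low genes. Libraries needed 1000 genes, which removed 0. Ward clustering used 15 principal components of 2000 variable genes and gave 8 clusters. Doublets were not called. Intervals of shares are exact binomial (Clopper-Pearson, 95%) and reflect counting error alone. Without replicates by animal no test was run. The 8 genes, the marker and pathway lists and the alternatives were chosen with earlier results of these data known. Named pathway genes are the 4 largest differences in size in vascular-like minus other N and the 2 largest in C minus other N per list. H2-T23, Psmb8, Psmb9, Psmb10, Psme2, Tap2 and Erap1 were added after their values were seen. So were Ifit1, Gbp2, Gbp6, Gbp7, Lgals3bp, Parp9, Eif2ak2, Xaf1, Oas3 and Oas1b. The 3 most similar genes per gene, and 10 for the mean, were taken by Pearson's r, and 1 gene that this rule takes is not reported here. The calculation of differences was checked on simulated data with known shifts, which tests its arithmetic and not the reported differences.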

Additional observations from a re-analysis of the deposited data

Results flagged for a closer look

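Within R, 3 levels stood apart from the other 3 libraries by the gap to the nearest library, set against the whole range of the group. H2-K1 was at 217 TPM in R3 and at 0 in the others, and H2-D1 was at 3.98 TPM in R3 and at 0 in the others. Tapbp was at 2.14 TPM in R1, with a gap of 0.897 of the range. Chance sets about 1 in 20 groups of this size apart, and groups of mostly 0 values are set apart more easily. For H2-K1 and H2-D1 only R3 was above 0, so the gap was the whole range whatever the level in R3. That rate does not hold for them, nor for Tapbp, which was at 0 in 2 of the 4 R libraries. The heavy-chain levels of R3 came with 4.77 TPM of B2m.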

How the results depend on the processing

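The same 11 N libraries were vascular-like with 6 or 10 clusters or 30 components. In vascular-like minus other N, the genes higher were 3 with a pseudocount of 10 and 3 at a threshold of 2 on the log2 scale. Of all genes, 3.10% and 1.94% were. The genes lower were 1 with libraries of at least 3000 genes, where 29.3% of all genes were. The genes higher were 4 with vascular-like libraries chosen by marker list means and 4 with medians (8.55% and 3.21% of all genes). H2-K1, at 0.13 and 0, was not among them. With medians H2-D1, at 3.10, was among them and Tapbp, at 0.18, was not. In C minus N, the genes higher were 1 with medians (B2m, at 3.17), where 6.91% of all genes were. The genes lower were 1 with medians, 1 at a threshold of 2 and 1 with libraries of at least 3000 genes. Of all genes, 1.95%, 0.633% and 6.50% were lower. In C minus other N, the genes higher were 3 on the log2 scale of mean TPM and 4 with a pseudocount of 0.1 (36.4% and 15.5% of all genes). The genes lower were 0 with a pseudocount of 10 and 0 at a threshold of 2 (3.97% and 2.05% of all genes). The 3 by mean TPM were H2-K1, Ifitm2 and Ifitm3, without B2m (0.95). In R minus C, the genes lower were 2 with a pseudocount of 10, 3 with medians and 2 at a threshold of 2. Of all genes, 7.22%, 9.83% and 6.37% were lower. The genes higher were 1 with libraries of at least 3000 genes, where 25.2% of all genes were. The cause of these shifts was not tested. Leaving out 1 library at a time gave 3 to 6 genes higher and 0 to 0 lower in vascular-like minus other N, 0 to 0 higher and 2 to 3 lower in C minus N, 1 to 3 higher (3 without N13) and 0 to 1 lower (0 without N9 or N23) in C minus other N, and 0 to 1 higher and 5 to 6 lower (6 without R3) in R minus C. Rescaling by the median of ratios gave 6 genes higher in vascular-like minus other N, where 12.3% of all genes were. It moved the median of all genes from -0.43 to -0.11. Alternatives for mural-like N and for C libraries with vascular markers or Gapdh at 0, and N libraries left out, were added after seeing the data. No paired analysis was possible because no comparison has a test and the title numbers follow the order of eCFP levels. Depth is unknown, so a level of 0 cannot be told from a missed transcript.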

Other observations

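The number in a library's title followed the level of eCFP. Within each class the numbers ran in exact descending order of that row, with a Spearman rho of -1 in C, in N and in R. The levels ran from 33811 to 482 TPM in C, from 1306 to 17.3 TPM in N and from 107.9 to 5.01 TPM in R. The first C library, C1, with the highest eCFP, had B2m listed at 0 and 1376 TPM of Ifitm2.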
